A study of Mus musculus with 12 samples.

Results

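Matrix metalloproteinases (MMPs) are zinc-dependent enzymes that cleave collagens and other proteins of the extracellular matrix, and tissue inhibitors of metalloproteinases (TIMPs) bind their active sites and block them. Most MMPs are secreted as inactive proenzymes that other proteases activate, whereas *Mmp14* encodes a protease anchored in the cell membrane. MMP14 activates proMMP2 at the cell surface in a complex that TIMP2 bridges at low levels and blocks at high levels. In liver, these genes are best known from macrophages and stellate cells during the formation and resolution of scar tissue.

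The transcripts of 8 MMP genes (*Mmp2*, *Mmp3*, *Mmp8*, *Mmp9*, *Mmp12*, *Mmp13*, *Mmp14* and *Mmp19*) and 2 TIMP genes (*Timp1* and *Timp2*) were followed as the rows with these symbols in a table of 55335 genes. The 10 genes were each listed once. They were read in 12 mouse libraries, 3 in each of 4 groups. Bone marrow-derived macrophages (BMDMs) came from male mice 6 weeks old by the labels, with a range that reaches somewhat older mice in the study's methods, either *Tshr* f/f (floxed thyrotropin receptor) or *Tshr* MKO, which carry the floxed alleles together with *Lyz2*-Cre, a recombinase driven in myeloid cells and not in macrophages alone. The BMDMs of both genotypes were grown for 7 days with M-CSF at 10 ng/mL and then received TSH at 1 ng/mL for 24 h, so no library lacked TSH. Livers came from male *Tshr* f/f and *Tshr* MKO mice that started a high-fat diet at 6 weeks of age, stayed on it for 9 weeks, were fasted for 8 h and were killed 5 min after insulin at 1.5 U/kg. A table of receptor genes in the study's supplement sets these livers under the opposite genotype headings for the genes compared by hand, so the livers are called here by their labels in the repository.

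Totals ran from 28962878 to 40954211 counts per library. *Tshr* itself had at most 5 counts in a BMDM library and 0 in the livers, so the targeted gene could not check the genotype labels. The macrophage markers were all detected in BMDMs, with a summed level of 15154 to 29694 CPM (counts scaled to library size), and 4 of 5 hepatocyte markers were at 0 there. *Lyz2*, the gene that drives Cre, was at 8768 to 9837 CPM for *Tshr* f/f and at 14528 to 22306 CPM for *Tshr* MKO BMDMs. In livers it overlapped, at 27.7 to 59.9 CPM for those labelled *Tshr* f/f and 1.56 to 106 CPM for those labelled *Tshr* MKO. These levels were not used to check the genotype labels. The third *Tshr* f/f BMDM library stood apart, with a TMM scaling factor of 0.738 against 0.993 to 1.114 in the other 5. In the first liver labelled *Tshr* f/f, the summed level of 8 fibroblast and stellate cell markers was 36.9 CPM against 123 to 323 CPM in the other 5 livers, and that of 9 neutrophil markers was 87.2 CPM against 8.62 to 28.1 CPM. All CPM are TMM-normalised within a tissue.

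The genes lie on 7 chromosomes (GENCODE M21, GRCm38, the assembly also called mm10). *Mmp13* (chr9:7272514-7283331), *Mmp12* (chr9:7344381-7369499), *Mmp3* (chr9:7445822-7455975) and *Mmp8* (chr9:7558456-7568485) stood in this order on the plus strand, in a run of 10 *Mmp* genes on chromosome 9. *Mmp2* (chr8:92827291-92853420), *Mmp9* (chr2:164940780-164955850), *Mmp14* (chr14:54431612-54445364), *Mmp19* (chr10:128790910-128800824) and *Timp1* (chrX:20870166-20874735) are also on plus strands, and *Timp2* (chr11:118301069-118355740) is on a minus strand. Exons of *Mmp12* overlap the opposite-strand gene *Mmp1b* by 157 bp, and *Mmp1b* had at most 3 counts in any library. Exons of *Mmp19* overlap 2 opposite-strand genes by 1001 bp, of which *Gm47093* was at 0 throughout and *Tmem198b* had up to 491 counts.

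The promoters of the chromosome 9 genes are shown because neighbours in this run differed in level and in genotype pattern, and those of *Mmp14* and the TIMP genes because these were among the most abundant of the 10 transcripts in BMDMs. RefSeq promoter windows (GRCm38.p6) matched 7 of the 10 genes and gave 8 windows, and *Mmp2*, *Mmp9* and *Mmp19* had no entry. Each line gives the 60 bases before a RefSeq start, 5′ to 3′ on the gene's own strand, with a match to the AP-1 motif TGANTCA in capitals.
Mmp13, chr9:7272454-7272513, plus strand: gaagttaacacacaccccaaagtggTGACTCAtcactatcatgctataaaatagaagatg
Mmp12, first start, chr9:7344337-7344396, plus strand: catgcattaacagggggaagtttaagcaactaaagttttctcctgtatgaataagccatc
Mmp12, second start, chr9:7347314-7347373, plus strand: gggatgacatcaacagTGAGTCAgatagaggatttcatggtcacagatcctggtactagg
Mmp3, chr9:7445762-7445821, plus strand: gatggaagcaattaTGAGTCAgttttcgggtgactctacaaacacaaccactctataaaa
Mmp8, chr9:7558369-7558428, plus strand: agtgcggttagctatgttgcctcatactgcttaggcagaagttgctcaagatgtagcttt
Timp2, chr11:118355412-118355471, minus strand: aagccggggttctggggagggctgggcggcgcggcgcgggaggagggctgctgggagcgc
Mmp14, chr14:54431538-54431597, plus strand: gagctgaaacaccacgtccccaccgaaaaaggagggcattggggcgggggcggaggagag
Timp1, chrX:20870106-20870165, plus strand: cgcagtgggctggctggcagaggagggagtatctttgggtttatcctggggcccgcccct

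Both strands of the 250 bases before each start were searched, and no match overlapped a match to another motif. The AP-1 letters stood at -35 to -29 in *Mmp13*, at -46 to -40 in *Mmp3* and at -44 to -38 in the second window of *Mmp12*, counted from the base before the start as -1. They occurred in 6.749% of the 32851 mouse promoter windows of the same length. The letters TATAAA stood in *Mmp13* and *Mmp3* (12.37% of all windows) and GGGCGG in *Mmp14*, *Timp1* and *Timp2* (32.74% of all windows). Another motif, AGGAAG, was in 6 of the 8 windows and in 29.48% of all windows, and a match to the kappaB motif was in none of the 8 and in 3.899% of all. Thus the secreted enzymes *Mmp13* and *Mmp3* held both TATAAA and the AP-1 letters, and *Mmp14* and both inhibitors held GGGCGG and neither of these.

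In *Tshr* f/f BMDMs, the membrane-type protease and the inhibitor *Timp1* led on the scale of CPM per kilobase of exon (CPM/kb), the only scale on which levels of different genes are compared. *Mmp14* was at 194 ± 91.8 CPM/kb and *Timp1* at 152 ± 97.5 CPM/kb (mean ± SD, n = 3 throughout). *Mmp8*, *Timp2*, *Mmp9* and *Mmp12* followed at means of 49.5, 39.6, 38.0 and 30.1 CPM/kb (SD 76.5, 19.8, 21.01 and 6.21), and *Mmp2*, *Mmp19*, *Mmp13* and *Mmp3* were lowest at 11.4, 7.05, 6.73 and 2.89 CPM/kb. Neighbours in this order overlapped in their 3 values, except that every value of *Mmp12* was above every value of *Mmp2*. Without the second *Tshr* f/f library the mean of *Mmp8* was 5.33 CPM/kb, which put it at place 8 of the 10.

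In *Tshr* MKO BMDMs the order differed. *Timp2* was first at 110 ± 8.68 CPM/kb, above all values of *Mmp14* at 84.1 ± 7.61 CPM/kb, which overlapped *Mmp12* at 73.2 ± 39.2 CPM/kb. *Timp1* followed at 22.9 ± 5.32 CPM/kb, and *Mmp2* and *Mmp3* were last at 0.932 and 0.870 CPM/kb.

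**Figure D1:**
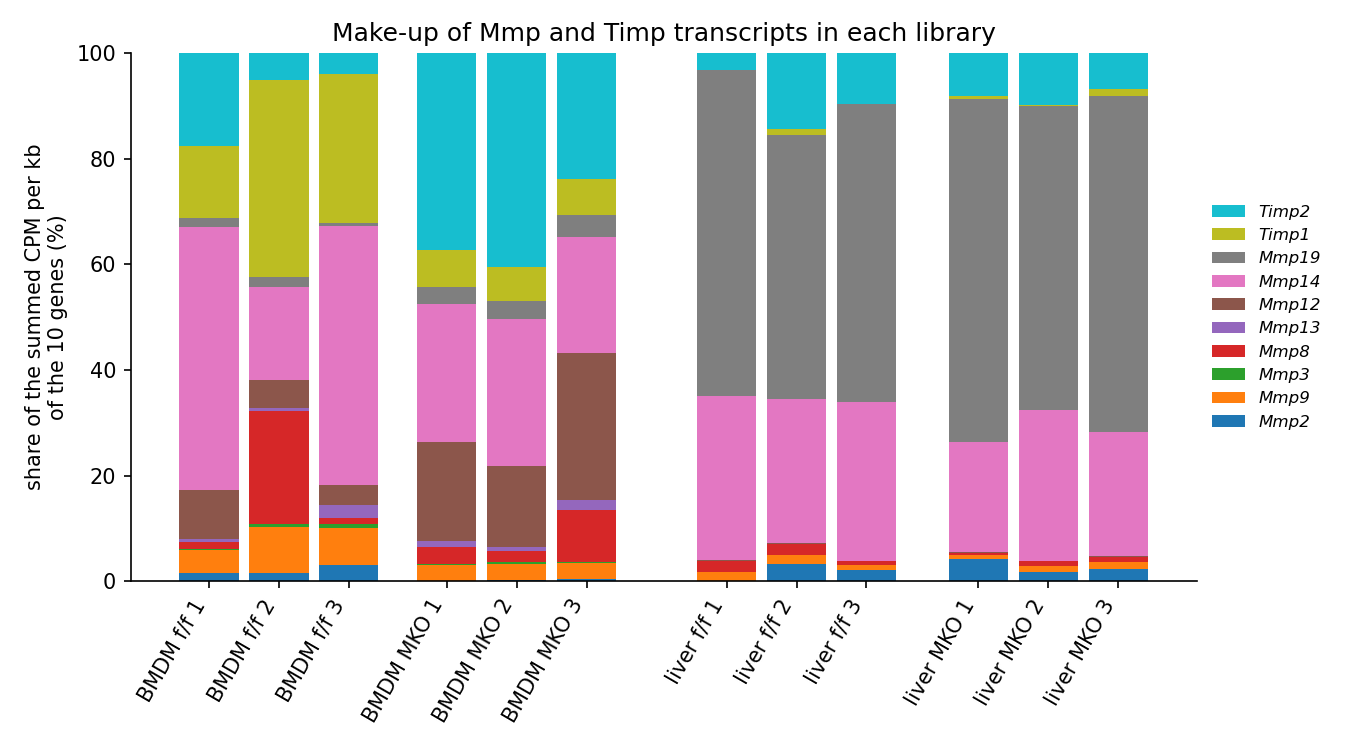
Share of each gene in the summed CPM per kilobase of the 10 genes (y axis, percent) in each of the 12 libraries (x axis, one stacked bar per library). *Timp2* took 23.9 to 40.4% in *Tshr* MKO BMDMs and 3.98 to 17.6% in *Tshr* f/f BMDMs, and *Mmp19* took 50.02 to 64.9% in the livers.

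Shares within a library do not depend on its scaling. *Timp2* took 17.6%, 5.14% and 3.98% of the summed CPM/kb of the 10 genes in the *Tshr* f/f BMDM libraries and 37.4%, 40.4% and 23.9% in the *Tshr* MKO libraries. *Timp1* took 13.6%, 37.3% and 28.1% against 6.94%, 6.52% and 6.81%. The groups did not overlap for either inhibitor, and the inhibitors stood on opposite sides. The shares of *Mmp2*, *Mmp9*, *Mmp12* and *Mmp19* did not overlap either, whereas those of *Mmp3*, *Mmp8*, *Mmp13* and *Mmp14* did. *Mmp14* took 49.7%, 17.6% and 49.1% against 26.1%, 27.8% and 22.0%, so its lower level in *Tshr* MKO did not show as a separate share. On CPM, the groups did not overlap in 28.7% of all genes tested.

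Per kilobase, *Timp1* was at 0.772, 7.26 and 7.08 times *Timp2* in the *Tshr* f/f BMDM libraries and at 0.186, 0.161 and 0.285 times in the *Tshr* MKO libraries. The ratio of *Mmp14* to *Timp2* was 2.82, 3.42 and 12.3 against 0.699, 0.688 and 0.921. Thus *Mmp14* exceeded *Timp2* in each *Tshr* f/f library and was under it in each *Tshr* MKO library. Summed over the genes, MMP to TIMP ratios were 2.20, 1.35 and 2.11 against 1.26, 1.13 and 2.26, and here the groups overlapped. These ratios were chosen after the values were seen and were not tested.

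The comparison of genotypes asked which of these genes differed between TSH-treated BMDMs of *Tshr* f/f and *Tshr* MKO mice. No member, and 0 of 15372 genes (0%), passed an adjusted p of 0.05 in edgeR's quasi-likelihood test with Benjamini-Hochberg adjustment. At an unadjusted p under 0.05 stood 7 of the 10 genes, against 17.9% of all genes tested. Of these, *Mmp2*, *Mmp9*, *Mmp3*, *Mmp14* and *Timp1* were lower in *Tshr* MKO and *Mmp12* and *Timp2* higher. In 6 of the 10 genes the 3 values of one genotype all lay beyond the 3 of the other, against 28.7% of all genes tested, and these were the same 6 under TMM, RLE, upper-quartile and no scaling factors. The median log2 fold change, *Tshr* MKO against *Tshr* f/f, was -1.29 over the 10 genes and 0.0083 over all genes tested. The 10 genes were chosen with earlier results of these data known, so such shares and medians, here and in liver, do not test them against all genes. DESeq2 on the same counts called 6 of the 10 genes at an adjusted p under 0.05 (*Mmp2*, *Mmp9*, *Mmp14*, *Timp1*, *Mmp12* and *Timp2*) and 7.93% of all genes with an adjusted p.

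**Figure D2:**
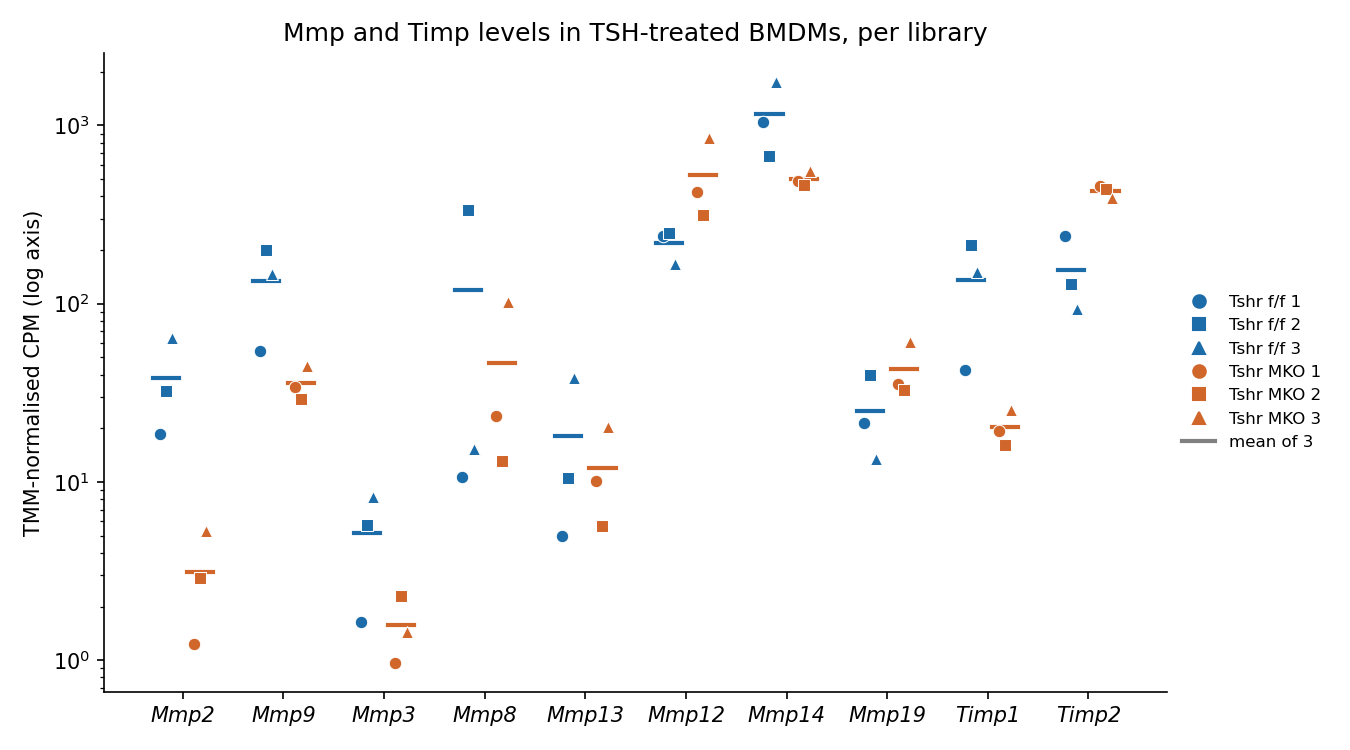
TMM-normalised CPM (y axis, log scale) of the 10 genes (x axis) in the 3 *Tshr* f/f and 3 *Tshr* MKO BMDM libraries, with bars at the mean of 3. *Mmp2*, *Mmp9*, *Mmp14* and *Timp1* lie lower in every *Tshr* MKO library, *Mmp12* and *Timp2* lie higher, and the other 4 genes overlap.

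The gelatinases cleave denatured collagen and basement membrane collagen. *Mmp2* was at 18.6, 32.4 and 64.0 CPM in the *Tshr* f/f BMDM libraries and at 1.23, 2.91 and 5.30 CPM in the *Tshr* MKO libraries. Every *Tshr* MKO value was below every *Tshr* f/f value, and the group means differed 12.2-fold, the widest gap of the 10 genes. edgeR gave a log2 fold change of -3.60 (SE 0.68, adjusted p = 0.218) and DESeq2 gave -3.63 (adjusted p = 3.5e-06).

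*Mmp2* is also a product of fibroblasts, and the BMDM libraries held fibroblast transcripts. Of 8 fibroblast and stellate cell markers 7 were detected, with *Lrat* at 0, and their summed level was 1090, 2652 and 1048 CPM for *Tshr* f/f and 1068, 1333 and 666 CPM in *Tshr* MKO. *Col1a1* stood at 215 to 1116 CPM, and 3 of these markers are also in the list of matrix substrates described further on. The sums overlapped between genotypes, while 5 of the 6 markers tested had a log2 fold change below 0, with a median of -0.55 over the 6. The groups did not overlap in 1 of the 6, against 28.7% of all genes tested. It was *Pdgfrb*, a receptor of fibroblasts and stellate cells, which is named here after its values were seen. *Pdgfrb* was at 10.7, 16.4 and 14.2 CPM against 6.94, 10.4 and 4.50 CPM (log2 fold change -0.92, SE 0.34, edgeR adjusted p = 0.257). The part of fibroblast RNA in the level of *Mmp2* was not tested.

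*Mmp9*, the gelatinase of macrophages and neutrophils, was at 54.3, 201 and 148 CPM against 33.9, 29.2 and 44.9 CPM. The *Tshr* MKO libraries lay close together and all below the lowest *Tshr* f/f library. Its log2 fold change was -1.90 (SE 0.47, edgeR adjusted p = 0.218), and DESeq2 gave an adjusted p of 0.00361. The summed level of the 9 neutrophil markers, led by *S100a8*, was 7.60, 31.2 and 49.1 CPM for *Tshr* f/f and 6.71, 5.20 and 12.5 CPM in *Tshr* MKO BMDMs. *Ly6g*, which defines mature neutrophils, had 9 counts or fewer in every BMDM library. The sums overlapped between genotypes, and of the 5 markers tested 2 were lower in *Tshr* MKO (*S100a8* and *Camp*) and 3 higher (*Retnlg*, *Mpo* and *S100a9*, each under 2 CPM in every library), with a median log2 fold change of 0.96. Their part in the level of *Mmp9* was not tested.

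*Mmp3*, or stromelysin-1, degrades several matrix proteins and activates other proMMPs. It was the least abundant of the 10 genes per kilobase in BMDMs of both genotypes, at 1.63, 5.72 and 8.25 CPM for *Tshr* f/f and 0.966, 2.29 and 1.44 CPM in *Tshr* MKO. The groups overlapped through the first *Tshr* f/f library, and the log2 fold change was -1.72 (SE 0.63, edgeR adjusted p = 0.257).

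The collagenases cleave fibrillar collagen. *Mmp8*, the neutrophil collagenase, was at 10.6, 334 and 15.2 CPM for *Tshr* f/f and 23.6, 13.1 and 102.1 CPM in *Tshr* MKO BMDMs. A single library held most of the signal in each genotype, the second *Tshr* f/f and the third *Tshr* MKO. By edgeR the log2 fold change was -1.37 (SE 1.44, adjusted p = 0.621) and became 1.84 without the second *Tshr* f/f library, so no direction was given by these data. In that library the summed level of the 9 neutrophil markers was 31.2 CPM, against 7.60 and 49.1 CPM in the other *Tshr* f/f libraries. *Ly6g* was at 0 in the second *Tshr* f/f library and had 9 counts or fewer in every BMDM library. The part of neutrophil RNA in the level of *Mmp8* was not tested.

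*Mmp13*, the main interstitial collagenase of mice, was at 4.94, 10.5 and 38.5 CPM against 10.1, 5.68 and 20.3 CPM, with overlapping groups. Its log2 fold change was -0.58 (SE 0.81, edgeR adjusted p = 0.716) and became 0.63 without the third *Tshr* f/f library. Thus neither collagenase had a stable direction between genotypes.

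*Mmp12*, the macrophage elastase, stood on the opposite side from the gelatinases and *Mmp3*. It was at 238, 249 and 166 CPM for *Tshr* f/f and 425, 314 and 851 CPM in *Tshr* MKO BMDMs, with no overlap and the widest spread in *Tshr* MKO. By edgeR its log2 fold change was 1.28 (SE 0.40, adjusted p = 0.230), and DESeq2 gave an adjusted p of 0.0336. Without the third *Tshr* f/f library it was 1.11, and over the 6 fits that left out 1 library it ran from 0.76 to 1.55.

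*Mmp14* was at 1039, 677 and 1752 CPM for *Tshr* f/f and 488, 464 and 552 CPM in *Tshr* MKO BMDMs. The *Tshr* MKO libraries lay close together and below all *Tshr* f/f libraries. The log2 fold change was -1.21 (SE 0.36, edgeR adjusted p = 0.225), DESeq2 gave an adjusted p of 0.027, and without the third *Tshr* f/f library the log2 fold change was -0.78.

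*Mmp19*, a secreted MMP found in many resting tissues, was at 21.3, 40.0 and 13.4 CPM against 35.4, 32.8 and 61.0 CPM. The groups overlapped through the second *Tshr* f/f library, and the log2 fold change was 0.79 (SE 0.44, edgeR adjusted p = 0.378). The count of *Tmem198b*, which shares its exons on the other strand, was at most 379 in *Tshr* f/f and at least 381 in *Tshr* MKO libraries, and whether the counting used strand is not given in the sources used here.

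Of the inhibitors, *Timp1*, which is induced by inflammatory signals, was at 42.4, 214 and 150 CPM for *Tshr* f/f and 19.3, 16.2 and 25.5 CPM in *Tshr* MKO BMDMs. The groups did not overlap and their means differed 6.65-fold. Its edgeR log2 fold change was -2.73 (SE 0.58, adjusted p = 0.218), and DESeq2 gave an adjusted p of 0.000119.

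*Timp2*, which is expressed more constantly and takes part in the activation of proMMP2, was at 241, 129 and 92.8 CPM against 456, 441 and 392 CPM. Every *Tshr* MKO library was above every *Tshr* f/f library, and the means differed 2.79-fold. The log2 fold change was 1.48 (SE 0.36, edgeR adjusted p = 0.218), and DESeq2 gave an adjusted p of 0.00378. In this comparison *Mmp2* and *Mmp14* were thus lower and *Timp2* higher in *Tshr* MKO. That restates the result of each gene, and a link among the 3 genes was not tested.

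Without the third *Tshr* f/f library, the log2 fold changes of *Mmp2*, *Mmp9*, *Timp1* and *Timp2* were -3.02, -1.82, -2.65 and 1.22. At an unadjusted p under 0.05 stood 6 of the 10 genes in that fit. In the edgeR fits with 1 library left out, 6 or 7 of the 10 genes did so, and 0 passed an adjusted p of 0.05. Genotype direction in these libraries rests on 3 against 3 libraries. The study's methods give the sample number as that of littermate mice, and the labels do not tie each library to its own mouse. The first and second *Tshr* MKO BMDM libraries differed least of all pairs within a group. Their chi-squared per degree of freedom, a measure of difference relative to counting error, was 12.3. It was 93.2 to 520.5 in the other BMDM pairs and 41 to 212.6 in the liver pairs. Whether these 2 libraries are independent was not tested.

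**Figure D3:**
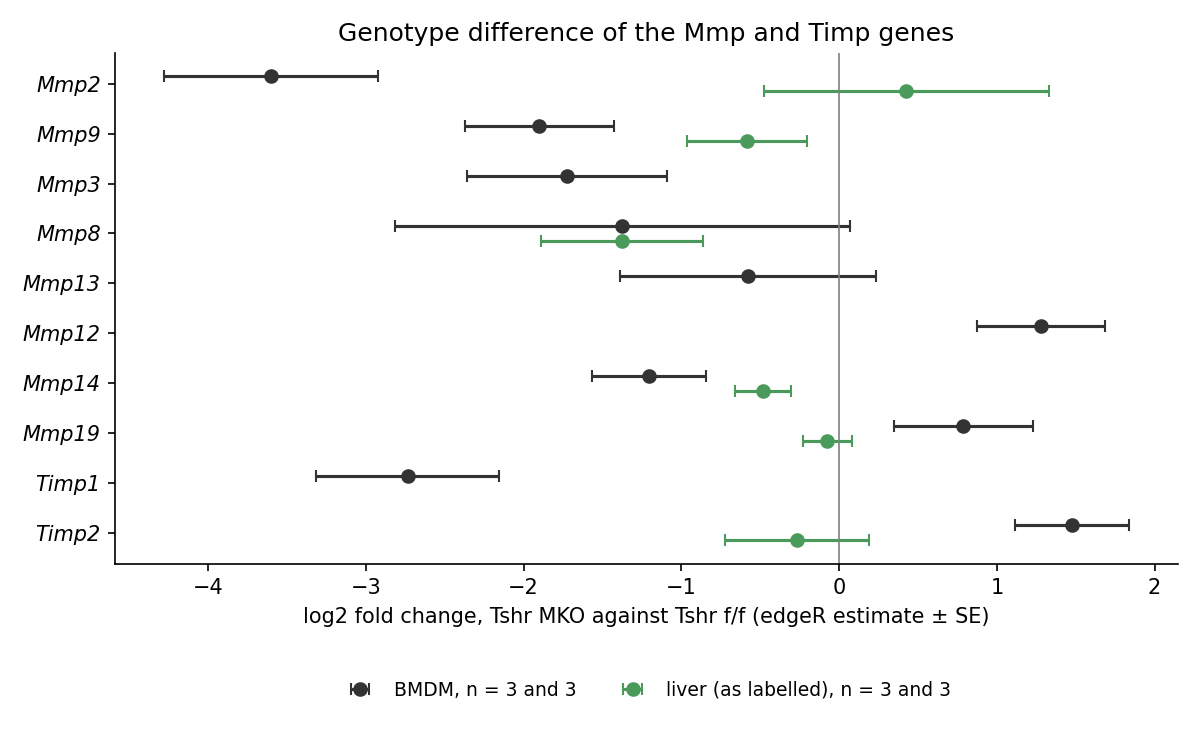
log2 fold change, *Tshr* MKO against *Tshr* f/f (x axis, edgeR estimate with bars of 1 SE), of the 10 genes in BMDMs and of the 6 genes tested in liver (y axis, genes). In BMDMs *Mmp2* is farthest to the left at -3.60 and *Timp2* farthest to the right at 1.48, and the liver estimates run from -1.37 to 0.43.

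In liver the same genes were read in whole tissue, where fewer cells of a type and less RNA per cell cannot be told apart. Of the 10 genes, 6 passed the filter on low counts (*Mmp2*, *Mmp8*, *Mmp9*, *Mmp14*, *Mmp19* and *Timp2*). No member, and 0 of 15062 genes (0%), passed an adjusted p of 0.05 in edgeR's quasi-likelihood test with Benjamini-Hochberg adjustment. At an unadjusted p under 0.05 stood 2 of the 6 genes, *Mmp8* and *Mmp14*, both lower in livers labelled *Tshr* MKO, against 10.5% of all genes tested. Under TMM scaling 0 of the 6 genes had groups without overlap, against 17.3% of all genes tested, whereas *Mmp8* separated under RLE, upper-quartile or no scaling factors. DESeq2 called 0 of the 6 genes at an adjusted p under 0.05 and 2.04% of all genes with an adjusted p, and it had 2 of the 6 at an unadjusted p under 0.05. The number at an unadjusted p under 0.05 in edgeR became 1 without any 1 of the livers labelled *Tshr* f/f or without the second labelled *Tshr* MKO, and 0 without the first or the third labelled *Tshr* MKO. The median log2 fold change was -0.37 over the 6 genes and -0.0064 over all genes tested.

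**Figure D4:**
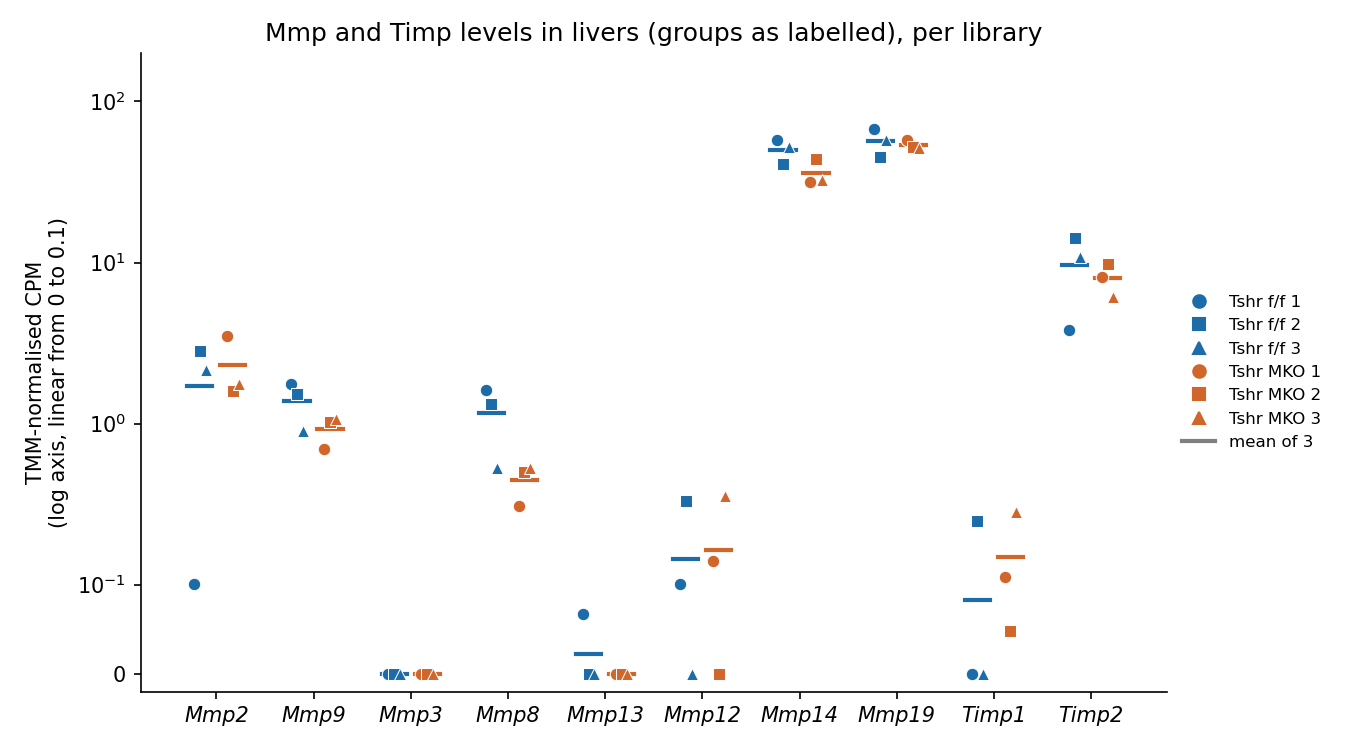
TMM-normalised CPM (y axis, log scale above 0.1 and linear from 0 to 0.1) of the 10 genes (x axis) in the 3 livers labelled *Tshr* f/f and the 3 labelled *Tshr* MKO, with bars at the mean of 3. *Mmp19* and *Mmp14* lie at 31.6 to 67.9 CPM, *Mmp3* is at 0 in all 6 livers, and under this scaling the groups overlap in every gene, whereas *Mmp8* separates under the other scalings tried.

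*Mmp19* was the leading transcript of the 10 in liver, at 16.1 ± 3.27 CPM/kb in livers labelled *Tshr* f/f and 15.3 ± 0.978 CPM/kb in those labelled *Tshr* MKO. It was at 67.9, 44.9 and 57.9 CPM against 58.0, 52.5 and 51.6 CPM, and the groups overlapped (log2 fold change -0.07, SE 0.15, edgeR adjusted p = 0.914). *Mmp14* was second, at 8.44 ± 1.43 and 6.04 ± 1.18 CPM/kb, with no overlap to its neighbours in the order.

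*Mmp14* stood at 57.9, 41.1 and 51.9 CPM in the livers labelled *Tshr* f/f and 31.6, 44.1 and 32.3 CPM in those labelled *Tshr* MKO. The second library of each group crossed, so the groups overlapped. The log2 fold change was -0.48 (SE 0.18, edgeR adjusted p = 0.432) and was -0.38 without the first liver labelled *Tshr* f/f.

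*Timp2* came next per kilobase, at 2.47 ± 1.37 and 2.06 ± 0.484 CPM/kb. Its libraries were at 3.82, 14.3 and 10.8 CPM against 8.10, 9.85 and 6.08 CPM (log2 fold change -0.27, SE 0.46, edgeR adjusted p = 0.891). *Mmp2* was at 0.101, 2.84 and 2.16 CPM against 3.52, 1.59 and 1.77 CPM (log2 fold change 0.43, SE 0.90, edgeR adjusted p = 0.915). Both genes were lowest in the first liver labelled *Tshr* f/f, where *Mmp2* had 3 counts and where the fibroblast and stellate cell marker sum was also lowest. Without that library the log2 fold change of *Mmp2* was -0.13 and that of *Timp2* was -0.65, whereas *Timp2* was at 0.13 without the second liver labelled *Tshr* f/f. The part of cell make-up in these values was not tested.

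*Mmp8* measured 1.62, 1.32 and 0.531 CPM in the livers labelled *Tshr* f/f and 0.307, 0.4997 and 0.531 CPM in those labelled *Tshr* MKO (log2 fold change -1.37, SE 0.52, edgeR adjusted p = 0.433). The third libraries of both groups were level, so that the groups just overlapped. *Mmp9* was at 1.76, 1.52 and 0.895 CPM against 0.698, 1.02 and 1.06 CPM (log2 fold change -0.58, SE 0.38, edgeR adjusted p = 0.640). The highest value of both lay in the first liver labelled *Tshr* f/f, which also held the highest neutrophil marker sum and 19.7 CPM of *Mpo*, a granule enzyme of neutrophils and their precursors. *Mpo* is named here after its values were seen. *S100a8*, *S100a9*, *Elane*, *Camp* and *Ltf* were also highest in that liver. *Retnlg* and *Cxcr2* were not, at 0.981 and 0.676 CPM there and up to 1.05 and 1.27 CPM in other livers. Without that library the log2 fold changes of *Mmp8* and *Mmp9* were -1.06 and -0.39, and the part of neutrophil RNA was not tested. *Ly6g* had at most 2 counts in any liver.

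The other 4 genes were near the floor of the liver libraries. *Mmp3* had 0 counts in all 6 livers, which allows up to 0.0714 to 0.106 CPM per library (3 counts). *Mmp13* had 2 counts in the first liver labelled *Tshr* f/f and 0 in the rest. *Mmp12* had 3, 12 and 0 counts against 5, 0 and 10, and *Timp1* had 0, 9 and 0 against 4, 2 and 8. No genotype difference was detectable at these counts.

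The difference of the genotype effect between BMDMs and liver was tested itself, as an interaction over the 12 libraries, for the 6 genes tested in both tissues. In edgeR 0 of the 6 passed an adjusted p of 0.05, against 0.0058% of all genes tested, and 2 of the 6, *Mmp2* and *Timp2*, stood at an unadjusted p under 0.05, against 14.5% of all. That number was 5 without the second *Tshr* f/f BMDM library and 1 without the second liver labelled *Tshr* f/f. For *Mmp2* the log2 fold change in BMDMs minus that in liver was -4.02 (SE 1.20, edgeR adjusted p = 0.211). It was 1.74 for *Timp2* (SE 0.64, edgeR adjusted p = 0.271). For *Mmp9*, *Mmp14*, *Mmp19* and *Mmp8* it was -1.31, -0.73, 0.86 and 0.03 (SE 0.62, 0.43, 0.51 and 1.59). DESeq2 called *Mmp2* alone of the 6 (adjusted p = 0.0235), against 6.22% of all genes with an adjusted p. These values follow the labels of the livers and would differ if the groups were exchanged.

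Between tissues, within the libraries labelled *Tshr* f/f, all 10 genes passed an adjusted p of 0.05 in edgeR's quasi-likelihood test with Benjamini-Hochberg adjustment. Of all genes tested, 69.3% did so. The level of 9 genes was higher in BMDMs and that of *Mmp19* was higher in liver. Cultured macrophages with TSH were set against livers of insulin-treated mice on a high-fat diet, so tissue, culture, diet and agents cannot be told apart.

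*Mmp19* was at 24.9 ± 13.6 CPM in *Tshr* f/f BMDMs and 56.9 ± 11.5 CPM in the livers labelled *Tshr* f/f, a ratio of mean CPM of 0.438. The CPM were scaled within each tissue, whereas the test used a joint scaling of the 12 libraries. Ratios of CPM therefore lie further toward BMDMs than the log2 differences of the joint fit. In that fit *Mmp19* had a log2 difference, BMDM minus liver, of -2.08 (SE 0.37, edgeR adjusted p = 0.000516). For the 5 genes above the floor in liver that were higher in BMDMs, the ratio of mean CPM was 16.0 for *Timp2*, 22.6 for *Mmp2*, 23.0 for *Mmp14*, 96.7 for *Mmp9* and 104 for *Mmp8*. Their log2 differences in the joint fit were, in this order, 3.11, 3.59, 3.64, 5.70 and 5.79. The ratio of *Mmp8* rested on the second *Tshr* f/f BMDM library and was 11.2 without it. For *Mmp12* and *Timp1* the ratios were 1513 and 1636 on 15 and 9 counts in total in the 3 livers. The joint fit gave them log2 differences of 9.57 and 9.59. *Mmp13* gave a ratio of 864 on 2 liver counts (exact Poisson 95% interval 239 to 7136, counting error only), and a log2 difference of 8.70 in the joint fit. On CPM scaled within each tissue, *Mmp3* was at least 55.0-fold higher, against a floor of 3 counts per liver library.

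Of 17 other *Mmp* and *Timp* genes, 9 were tested in BMDMs, and 3 stood lower and 0 higher in *Tshr* MKO at an unadjusted p under 0.05, against 17.9% of all genes tested. The 3 were *Mmp25*, a membrane-anchored MMP of leukocytes, *Mmp16*, another membrane-type MMP, and *Timp3*, the inhibitor bound to matrix. *Timp3* was at 62.7, 206 and 106.9 CPM against 54.6, 63.6 and 27.2 CPM (log2 fold change -1.37, SE 0.50, edgeR adjusted p = 0.257), and its groups overlapped by 1 library. *Mmp27* and *Mmp23*, the most abundant of this list after *Timp3*, had log2 fold changes of 0.97 (SE 0.55) and 0.28 (SE 0.33). The median log2 fold change over the 9 genes was -0.03, beside -1.29 for the 10 genes above. Both lists were chosen with earlier results of these data known, so this contrast is no test of the 10 genes.

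Among 23 activators and inhibitors of MMPs, including the plasminogen system, 18 were tested in BMDMs and 2 stood lower and 0 higher at an unadjusted p under 0.05, a share below the 17.9% of all genes. *Serpinb2*, a serine protease inhibitor of macrophages, was at 215, 522 and 1704 CPM against 53.4, 15.6 and 124 CPM, without overlap (log2 fold change -3.66, SE 1.04, edgeR adjusted p = 0.222). *Furin*, the convertase that activates proMMP14, was not among these 2 (edgeR unadjusted p = 0.0501). It stood at -1.23 on the log2 fold change scale (SE 0.51, edgeR adjusted p = 0.278). *Thbs1*, *Lrp1* and *Cd44*, the most abundant of this list, had log2 fold changes of -1.06 (SE 1.17), 0.62 (SE 0.31) and -0.16 (SE 0.23). The median over the 18 genes was -0.36.

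Of 15 matrix substrates, 14 were tested in BMDMs, with 3 lower (*Col4a1*, *Col4a2* and *Vcan*) and 1 higher at an unadjusted p under 0.05, also beside 17.9% of all genes. The higher was *Spp1* (osteopontin), at 552, 221 and 376 CPM against 957, 1269 and 828 CPM without overlap (log2 fold change 1.41, SE 0.37, edgeR adjusted p = 0.218). *Col4a2*, a chain of basement membrane collagen, was at 32.6, 36.5 and 101 CPM against 17.2, 22.1 and 8.57 CPM. *Fn1* and *Col1a2*, abundant in these cultures, had log2 fold changes of -0.02 (SE 0.38) and -0.36 (SE 0.39). The median over the 14 genes was -0.42.

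In liver, the counts at an unadjusted p under 0.05 were 1 of 7 tested for the other *Mmp* and *Timp* genes (*Mmp7*), 2 of 20 for the activators and inhibitors (*Furin* and *Pcsk5*) and 1 of 15 for the substrates (*Col4a1*), all lower in livers labelled *Tshr* MKO. These shares were near or below the 10.5% of all genes tested. *Furin* was at 306, 290 and 269 CPM against 218, 223 and 202 CPM (log2 fold change -0.43, SE 0.10, edgeR adjusted p = 0.334). *Col4a1* was at 42.5, 47.6 and 40.1 CPM against 26.5, 30.5 and 28.6 CPM (log2 fold change -0.61, SE 0.10, edgeR adjusted p = 0.303). The groups did not overlap in these 2 genes, but neither passed the adjusted threshold. *Mmp15*, the membrane-type MMP most abundant in this list in liver, was at 19.2 to 33.5 CPM with a log2 fold change of 0.16 (SE 0.19). *Timp3* and *Mmp27* stood at -0.16 (SE 0.61) and -0.84 (SE 0.61) on that scale, and the median of the 7 genes was -0.02. *Plg*, the plasminogen made by hepatocytes, *Lrp1* and *Serpinf2* stood at -0.25 (SE 0.16), -0.41 (SE 0.19) and -0.10 (SE 0.14), and the median of their list was -0.23. The substrates *Vtn*, *Fn1*, *Spp1* and *Lamc1* stood at -0.30 (SE 0.19), -0.52 (SE 0.24), -0.26 (SE 0.29) and -0.58 (SE 0.31), and the median of that list was -0.26.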

How the data were processed

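The authors deposited a table of read counts per gene for 12 libraries. Per the labels and the submitters' processing notes, libraries were strand-specific (TruSeq) and sequenced on a NovaSeq instrument, and FastQC 0.11.2, STAR, StringTie and the mm10 build were named; the counting step and its use of strand are not given in the sources used here. Counts were scaled by TMM and tested with edgeR 4.0.16 (robust quasi-likelihood, two-sided, filterByExpr) in R 4.3.3 per tissue, and over 12 libraries for the interaction and the tissue contrast, with Benjamini-Hochberg adjustment over all genes tested. The unit of level is CPM, or CPM per kilobase of merged exons (GENCODE M21). Alternatives were other scalings (RLE, upper-quartile), other filters (none, or a mean count of 50 or more), DESeq2 1.42.0, a joint fit of both tissues, a block for replicate number, a term for the initial letter of the liver IDs, and fits that left out 1 library. The 10 genes and all lists were chosen with earlier results of these data known. All 10 are named, and of each related list the 3 genes with the highest mean CPM and the 3 with the lowest p in a tissue, except 1 gene that is not reported here. Figures were drawn with matplotlib. The fits were tested on simulated data, but no outcome of that is reported here, so it lends the results no weight. Depth limits precision at low counts, intervals and floors cover counting error only, and p-values set group differences against the spread between these libraries.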

Additional observations from a re-analysis of the deposited data

How the results depend on the processing

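The number of genes at an adjusted p under 0.05 moved in DESeq2, to 6 of 10 in BMDMs and to 1 of 6 for the interaction, and was 0 in every edgeR fit run of the genotype comparisons and the interaction. For BMDMs against liver it was 10 of 10 in every fit run. In liver, the 2 genes at an unadjusted p under 0.05 became 0 with the replicate block and with all 12 libraries in a fit, 1 with a mean of at least 50 counts and 1 with the first letter of the sample ID, and 0 to 1 with 1 library left out. For the interaction that number was 1 to 5 with 1 library left out. The replicate numbers share no pairing in the labels, and same-numbered BMDM libraries deviated with correlations of 0.096, 0.013 and 0.102 and livers with -0.056, 0.217 and -0.021, so the numbers were not taken to pair the samples, and the first *Tshr* f/f BMDM library correlated best with another number (0.153). With the replicate block, 6 of the 10 genes in BMDMs stood at an unadjusted p under 0.05, the log2 fold change of *Mmp8* turned to 0.35, and no other gene changed direction. Directions turned in the following fits, and the cause was not tested. In BMDMs, *Mmp8* ranged from -2.71 to 1.84 and *Mmp13* from -1.18 to 0.63 with 1 library left out. In liver, *Mmp2* ranged from -0.13 to 1.01, *Mmp19* from -0.222 to 0.0624 and *Timp2* from -0.65 to 0.13. The interaction of *Mmp8* ranged from -1.33 to 3.22. *Mmp2*, *Mmp3*, *Mmp9*, *Mmp12*, *Mmp14*, *Mmp19*, *Timp1* and *Timp2* in BMDMs kept their direction in all 13 alternatives. *Mmp8* separated the liver groups under RLE and upper-quartile scaling and without scaling factors, and not under TMM. The 4 genes with 12 counts or fewer in every liver could not be compared there.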
